A study of Mus musculus with 16 samples.

Results

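The AP-1 and immediate early genes described here are 10 transcription factor genes, taken by name from the deposited expression table of mouse primary hepatocytes. They are Jun, Junb and Jund of the Jun family, Fos, Fosb, Fosl1 and Fosl2 of the Fos family, and Egr1, Klf6 and Myc. All 10 were present among the 55416 genes of the table, and all 10 were among the 11858 genes with enough transcript to be tested, which meant at least 1 TPM in at least 4 samples. TPM is a length-corrected share of all transcripts in a sample, so levels of different genes can be set side by side. Of the 10 genes, 9 were above this level in every sample. Fosb reached 1 TPM in 7 of 16 samples, all of them with palmitic acid, so it was tested only because of the groups in which it was higher.

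Hepatocytes, the main cells of the liver, were cultured in 4 groups of 4 samples, 16 in all. HKO cells (Alb-cre+) came from a loxP cross that removes Smpd3 where Cre recombinase is made, and Cre was driven by the albumin promoter, which is active in hepatocytes. FLOX cells (Alb-cre-) lacked Cre. HKO cells received 0.4 mM palmitic acid (PA), a saturated fatty acid used in culture as a model of steatohepatitis, or vehicle for 24 h, and FLOX cells received 0.4 mM PA or vehicle for 24 h. The sources used here do not give strain, sex or age of the mice. Nothing in the labels says that samples of a group are separate mice or separate cultures, and the p-values below therefore reflect the spread among these samples alone, which could be technical.

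Smpd3 encodes a neutral sphingomyelinase, which releases ceramide from sphingomyelin in membranes. With PA it averaged 7.82 ± 1.11 TPM in HKO cells, against 46.0 ± 2.36 TPM in FLOX cells (mean ± SD, n = 4 each, as for all means below). With vehicle it averaged 5.29 ± 0.71 TPM in HKO cells, against 32.0 ± 4.09 TPM in FLOX cells. The sequencing depth is not kept in TPM values and is unknown here. All 8 hepatocyte markers were present in every sample, and their summed level was 44770 to 46230 TPM in HKO cells with PA, 58600 to 59720 TPM in HKO cells with vehicle, 42900 to 44420 TPM in FLOX cells with PA and 55120 to 55770 TPM in FLOX cells with vehicle. All 7 stellate cell and fibroblast markers and all 6 blood leukocyte markers stayed under 1 TPM in all 16 samples. Of 6 macrophage markers, Adgre1, Clec4f, Marco and Lyz2 stayed under 1 TPM in all 16 samples, and most of the sum was Cd68. That macrophage sum moved with treatment and genotype, at 81.4 to 107.5 TPM in HKO cells with PA, 60.7 to 70.3 TPM in HKO cells with vehicle, 56.1 to 68.6 TPM in FLOX cells with PA and 48.9 to 55.5 TPM in FLOX cells with vehicle. Of 6 endothelial markers, Pecam1, Kdr and Clec4g stayed under 1 TPM in all 16 samples, and the list summed to 4.51 to 5.46 TPM in HKO cells with PA, 4.61 to 5.20 TPM in HKO cells with vehicle, 2.68 to 4.82 TPM in FLOX cells with PA and 3.98 to 5.17 TPM in FLOX cells with vehicle. Of 4 cholangiocyte markers, Epcam stayed under 1 TPM in all 16 samples, and the list summed to 39.5 to 44.9 TPM in HKO cells with PA, 35.8 to 37.6 TPM in HKO cells with vehicle, 36.4 to 43.9 TPM in FLOX cells with PA and 34.8 to 39.8 TPM in FLOX cells with vehicle. Within it, Sox9 and Krt19 went opposite ways with PA. Sox9 was at 32.3 to 39.2 TPM in HKO cells with PA, against 22.1 to 23.4 TPM with vehicle, and at 30.4 to 38.0 TPM in FLOX cells with PA, against 24.2 to 29.7 TPM with vehicle. Krt19 was at 4.30 to 6.21 TPM in HKO cells with PA, against 10.97 to 13.6 TPM with vehicle, and at 4.07 to 5.60 TPM in FLOX cells with PA, against 7.41 to 10.3 TPM with vehicle. The part of these marker changes in the results below was not tested.

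The FLOX libraries numbered 1 stood apart from the others of their groups. On the third principal component of all genes tested (7.53% of the variance) FLOX PA replicate 1 lay at 19.0 and FLOX vehicle replicate 1 at -16.1. The others of these groups lay at -14.1 to -4.71 with PA and at -4.97 to 10.8 with vehicle, so the vehicle library was less clearly apart. On the first component (31.6%) FLOX PA replicate 1 lay at -12, against -24.1 to -20.6 in the others of its group. FLOX vehicle replicate 1 lay there at 13.9, against 18.4 to 19.6. FLOX PA replicate 1 was below the other 3 samples of its group for 4 of the 10 genes and above them for 2. FLOX vehicle replicate 1 was above the other 3 samples of its group for 7 of the 10. For the PA response in FLOX cells, each of the 10 genes is therefore given with and without this pair.

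AP-1 is a family of dimers that bind short DNA motifs. Jun proteins pair with each other or with Fos proteins, whereas Fos proteins need a Jun partner, and the choice of partner sets how strong and how lasting the activity is. Jun, Fos, Egr1, Klf6 and Myc are immediate early genes, transcribed within minutes of a stimulus without new protein synthesis, mostly through MAP kinases acting on factors such as SRF, ELK and CREB. Fosl1 is commonly a later target of AP-1 itself. In the liver these genes are known for their induction after partial hepatectomy and by isolation and plating of hepatocytes, and Jun for the survival and regrowth of hepatocytes.

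Promoter sequence was available for 7 of the 10 genes in a table from RefSeq (build GRCm38.p6), but not for Egr1, Fosl1 and Myc. The last 150 bases before the annotated start were searched on both strands, and sites farther upstream were not searched. The motifs were TGACATCA, the AP-1 and ATF site known from the Jun promoter, TGANTCA, the classical AP-1 site, TGACGTCA, the full cAMP response element, TGACGT, its shorter form that lies within it, GCGGGGGCG, the EGR site, and the CArG box bound by SRF. The 4 stretches printed here are those of genes whose transcripts changed with PA in both genotypes and that held a motif in at least 1 of these forms. Capitals mark the motif. Jun is at chr4:95052223-95052372 (minus strand), Klf6 at chr13:5861339-5861488 (plus strand), Fos at chr12:85473740-85473889 (plus strand) and Fosb at chr7:19310046-19310195 (minus strand).
Jun: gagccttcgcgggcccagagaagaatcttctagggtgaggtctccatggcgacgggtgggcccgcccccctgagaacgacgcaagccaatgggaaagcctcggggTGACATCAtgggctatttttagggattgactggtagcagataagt
Klf6: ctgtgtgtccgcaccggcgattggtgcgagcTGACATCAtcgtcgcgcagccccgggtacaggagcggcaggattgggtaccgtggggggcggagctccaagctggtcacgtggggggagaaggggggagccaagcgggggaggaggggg
Fos: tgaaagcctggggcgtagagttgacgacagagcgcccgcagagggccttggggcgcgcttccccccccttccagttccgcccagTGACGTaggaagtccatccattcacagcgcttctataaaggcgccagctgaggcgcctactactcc
Fosb: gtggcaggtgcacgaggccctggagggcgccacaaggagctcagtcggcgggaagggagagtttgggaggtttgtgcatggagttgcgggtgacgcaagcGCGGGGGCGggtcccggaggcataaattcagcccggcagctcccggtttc
Jun and Klf6 shared TGACATCA, which began 45 bases before the start of Jun and 119 bases before that of Klf6. Of 32851 promoter stretches of this length, 2.32% held it. It was searched as the site known from the Jun promoter, so its presence in Jun was known beforehand. Fos held TGACGT 66 bases before its start, as did 5.15% of all stretches in some position. Fosb held GCGGGGGCG 50 bases before its start, and Fosl2 held it 79 bases before its start, against 2.09% of all stretches. The stretches of Junb and Jund held none of the motifs, and none of the 7 stretches held TGACGTCA (1.36% of all), TGANTCA (4.24%) or a CArG box (0.916%). A match of letters is a description of the sequence, and no binding was measured.

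Levels of the 10 genes spanned a wide range. Averaged over the 16 samples, Jund was highest at 220.5 TPM, followed by Klf6 at 162.5 TPM, Myc at 92.9 TPM and Junb at 76.7 TPM. Egr1 at 39.2 TPM, Jun at 38.1 TPM and Fosl1 at 32.1 TPM followed. Fos at 13.6 TPM and Fosl2 at 9.80 TPM were lower, and Fosb was lowest at 0.78 TPM. The ranges over samples overlapped between neighbours in this order, except between Klf6 and Myc, between Junb and Egr1, and between Fosl2 and Fosb.

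**Figure D1:**
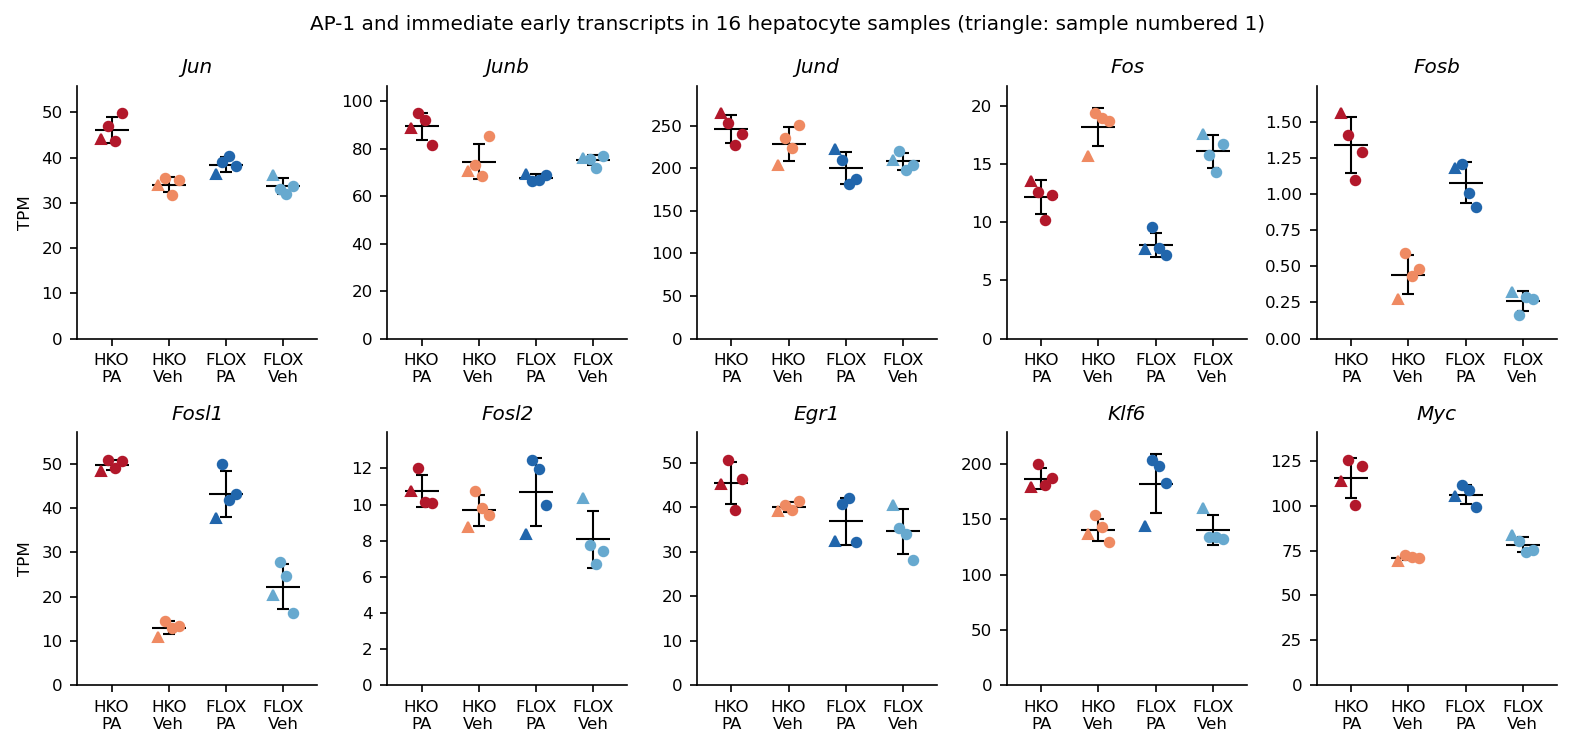
Level in TPM (vertical axes, linear, from 0) of each of the 10 genes in the 16 samples, with the 4 groups along the horizontal axes. Points are samples, triangles are those numbered 1, and black marks are means with SD, n = 4. Fosl1 in HKO cells with PA sits between 48.5 and 51.0 TPM, above every vehicle sample, and Fos with PA sits below every vehicle sample of both genotypes.

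With PA, 7 of the 10 genes passed the test in HKO cells, 6 higher and 1 lower (limma on log2(TPM + 1), adjusted p below 0.05 over all genes tested). In HKO cells 42.5% of all genes tested passed, 29.4% higher and 13.1% lower. With PA, 7 of the 10 also passed in FLOX cells, 6 higher and 1 lower, against 34.4% of all genes tested, 23% higher and 11.5% lower. The 10 genes were chosen with earlier results of these data known, so such counts, here and below, are descriptions. The median log2 difference over the 10 genes was 0.34 in HKO cells and 0.28 in FLOX cells, against 0.11 and 0.10 over all genes tested in the same cells. With median-ratio scaling the median over the 10 genes was 0.21 in HKO cells and 0.18 in FLOX cells, against 0.0056 and 0.0081 over all genes tested. Fosb enters every count in this paragraph, although it was tested only because of its level with PA. Limiting the test to genes at 5 TPM or more left Fosb out. The median over the other 9 genes was then 0.26 in HKO cells and 0.18 in FLOX cells. Over all genes tested it was then 0.12 and 0.10. Fosl1, Fosb, Myc, Klf6 and Jun were higher with PA and Fos was lower in both genotypes. In HKO cells the 4 PA and 4 vehicle samples did not overlap for 6 of the 10 genes, 5 higher and 1 lower, against 41.1% of all genes tested, 28.7% higher and 12.4% lower. In FLOX cells they did not overlap for 6 of the 10 genes, 4 higher and 2 lower, against 29% of all genes tested, 18.1% higher and 10.9% lower. In bulk samples such as these, a smaller number of cells of a type and less RNA per cell cannot be told apart.

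Jun (ENSMUSG00000052684), the founding member of AP-1 and the main target of the stress kinase JNK, rose with PA. Its level was 44.2, 47.05, 43.6 and 49.9 TPM in the 4 HKO samples with PA, against 33.9, 35.5, 31.7 and 35.1 TPM in the 4 with vehicle. The FLOX samples had 36.3, 39.1, 40.3 and 38.1 TPM with PA, against 36.1, 33.2, 31.9 and 33.8 TPM with vehicle. In both genotypes every PA sample was above every vehicle sample, by a wide gap in HKO cells and a narrow one in FLOX cells. The log2 difference was 0.43 ± 0.05 in HKO cells (SE, limma adjusted p = 1.31e-05) and 0.18 ± 0.05 in FLOX cells (adjusted p = 0.0159). The FLOX call rested on single libraries, since the difference was 0.16 without FLOX PA replicate 3 (adjusted p = 0.0521) and 0.16 without FLOX vehicle replicate 3 (adjusted p = 0.0537). Without both FLOX libraries numbered 1 it was 0.24 (adjusted p = 0.00386). It missed the threshold with median-ratio scaling, at 0.09 (adjusted p = 0.216), and with quantile normalization, at 0.10 (adjusted p = 0.140). Junos, a gene on the other strand that overlaps Jun, was at 1.17 to 2.7 TPM in the 16 samples.

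Junb (ENSMUSG00000052837), a weaker activator that can hold Jun activity in check, rose with PA in HKO cells. Its level there was 88.6, 95.05, 92.2 and 81.7 TPM with PA, against 70.8, 73.3, 68.7 and 85.4 TPM with vehicle. The groups overlapped through 1 high vehicle sample, HKO vehicle replicate 4. The log2 difference was 0.26 ± 0.06 (limma adjusted p = 0.00246), and it was 0.14 with median-ratio scaling (adjusted p = 0.117). In FLOX cells Junb was 69.3, 66.3, 66.65 and 69.0 TPM with PA, against 76.1, 75.55, 72.0 and 76.8 TPM with vehicle. Every FLOX sample with PA was below every one with vehicle, but the log2 difference of -0.15 missed the threshold (95% interval -0.27 to -0.02, adjusted p = 0.0735). It was also -0.15 without both FLOX libraries numbered 1 (adjusted p = 0.113). The difference passed as lower in 5 of 26 alternatives. These were median-ratio scaling, at -0.24 (adjusted p = 0.0119), quantile normalization, at -0.19 (adjusted p = 0.0213), sample weights, at -0.15 (adjusted p = 0.0371), a fit of the FLOX groups alone (adjusted p = 0.0218), and leaving out HKO vehicle replicate 4, a library that enters only the shared estimate of spread (adjusted p = 0.0218). Prdx2, which overlaps Junb on the other strand and encodes a peroxiredoxin, was at 109.9 to 169.2 TPM, and the strand setting of the authors' counting is not given, so reads shared between the pair cannot be told apart.

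Jund (ENSMUSG00000071076), the most abundant and the most steadily expressed Jun gene in many tissues, did not pass with PA in either genotype. It was at 226.8 to 264.7 TPM in HKO samples with PA, against 203.3 to 250.4 TPM in HKO samples with vehicle. In FLOX samples it was at 181.8 to 222.2 TPM with PA, against 197.5 to 220.4 TPM with vehicle. The ranges overlapped in both genotypes, with a log2 difference of 0.11 in HKO cells (95% interval -0.04 to 0.26) and of -0.06 in FLOX cells (95% interval -0.21 to 0.09), which was -0.10 without both FLOX libraries numbered 1 (adjusted p = 0.301). The HKO value turned to -0.01 with median-ratio scaling. Gm11175, which overlaps Jund on the other strand, was at 0 to 3.35 TPM.

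Fosl1 (ENSMUSG00000024912), which encodes FRA-1, a long-lived Fos protein without the strong activation domain of FOS, had the largest log2(TPM + 1) difference with PA of the 10 genes in both genotypes. Its level in HKO cells was 48.5, 51.0, 49.0 and 50.7 TPM with PA, against 10.98, 14.6, 12.8 and 13.4 TPM with vehicle. In FLOX cells Fosl1 was at 37.7, 50.1, 42.0 and 43.2 TPM with PA, against 20.4, 27.8, 24.6 and 16.3 TPM with vehicle. No PA sample overlapped a vehicle sample of either genotype. The mean with PA was 3.85 times that with vehicle in HKO cells, a log2 difference of 1.87 ± 0.13 (limma adjusted p = 1.70e-08). In FLOX cells it was 1.94 times, a log2 difference of 0.94 ± 0.13 (adjusted p = 3.49e-05), and 0.98 without the FLOX libraries numbered 1. Both calls held in all 26 alternatives. Ccdc85b, which overlaps Fosl1 on the other strand, was at 2.95 to 5.4 TPM.

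Fos (ENSMUSG00000021250), the prototype immediate early gene, fell with PA. Its level in HKO cells was 13.6, 12.6, 10.2 and 12.3 TPM with PA, against 15.7, 19.4, 18.9 and 18.7 TPM with vehicle. In FLOX cells Fos was at 7.69, 9.55, 7.78 and 7.15 TPM with PA, against 17.6, 15.8, 14.3 and 16.7 TPM with vehicle. The groups did not overlap in either genotype. The mean with PA was 66.9% of that with vehicle in HKO cells, a log2 difference of -0.55 ± 0.10 (limma adjusted p = 0.000357). It was 49.9% of that with vehicle in FLOX cells, a log2 difference of -0.92 ± 0.10 (adjusted p = 3.01e-06), and -0.86 without the FLOX libraries numbered 1. Fos was thus the only one of the 10 genes to pass as lower with PA in either genotype in the fit of all 16 samples, although Junb in FLOX cells did so in the 5 alternatives named above.

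Fosb (ENSMUSG00000003545), whose product resembles FOS and gives rise to a stable shortened form, was scarce. Its level in HKO cells was 1.56, 1.41, 1.10 and 1.29 TPM with PA, against 0.27, 0.59, 0.43 and 0.48 TPM with vehicle. In FLOX cells Fosb was at 1.18, 1.21, 1.01 and 0.91 TPM with PA, against 0.32, 0.16, 0.29 and 0.27 TPM with vehicle. The groups did not overlap, and the means with PA were 3.03 times those with vehicle in HKO cells and 4.14 times in FLOX cells. The log2(TPM + 1) scale compresses differences at such low levels. On it the difference was 0.70 ± 0.11 in HKO cells (limma adjusted p = 8.23e-05). In FLOX cells it was 0.72 ± 0.11 (adjusted p = 8.65e-05), and also 0.72 without the libraries numbered 1. No vehicle sample reached 1 TPM, so Fosb was tested only because of its level with PA. Its p-values and lack of overlap with PA are therefore no independent support.

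Fosl2 (ENSMUSG00000029135), which encodes FRA-2, passed in FLOX cells, where its level was 8.35, 12.5, 11.9 and 10 TPM with PA, against 10.4, 7.76, 6.73 and 7.44 TPM with vehicle. FLOX PA replicate 1 was the lowest of its group and FLOX vehicle replicate 1 the highest of its group, and through them the groups overlapped. The log2 difference was 0.37 ± 0.12 (limma adjusted p = 0.0319) with these libraries and 0.58 without both (adjusted p = 0.000313). The call was lost in 8 of 26 alternatives, over which the value ranged from 0.27 to 0.58. It was lost with no filter on TPM (adjusted p = 0.0758) and with a fit of the FLOX groups alone (adjusted p = 0.0951). Of the others, 5 left out 1 library. It was lost without FLOX PA replicate 2 (0.29, adjusted p = 0.106) or 3 (0.31, adjusted p = 0.0944), and without FLOX vehicle replicate 2 (0.35, adjusted p = 0.0688), 3 (0.30, adjusted p = 0.103) or 4 (0.34, adjusted p = 0.0800). In HKO cells Fosl2 was at 10.1 to 12.0 TPM with PA, against 8.74 to 10.8 TPM with vehicle, and its log2 difference of 0.14 did not pass (95% interval -0.13 to 0.40, adjusted p = 0.400).

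The makeup of the Fos family differed between treatments. In HKO cells the 4 Fos genes summed to 74.1 ± 2.69 TPM with PA, against 41.3 ± 4.02 TPM with vehicle. In FLOX cells they summed to 63.1 ± 7.63 TPM with PA, against 46.7 ± 4.60 TPM with vehicle. Fosl1 supplied 67.3% of the sum in HKO cells with PA, against 31.3% with vehicle, while Fos supplied 16.4% with PA, against 44.1% with vehicle. In FLOX cells Fosl1 supplied 68.6% with PA, against 47.4% with vehicle, and Fos 12.8% with PA, against 34.7% with vehicle. Expressed as Fosl1 over Fos, the ratio of TPM was 4.14 ± 0.51 in HKO cells with PA, 0.71 ± 0.03 in HKO cells with vehicle, 5.40 ± 0.48 in FLOX cells with PA and 1.41 ± 0.40 in FLOX cells with vehicle. Fos was the larger of the pair in all 4 HKO vehicle samples and in FLOX vehicle replicate 4. The Jun family changed far less in makeup, since Jund supplied 64.4% in HKO cells with PA, 67.7% in HKO cells with vehicle, 65.2% in FLOX cells with PA and 65.6% in FLOX cells with vehicle. These shares are given as a description, with no test of their own.

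**Figure D2:**
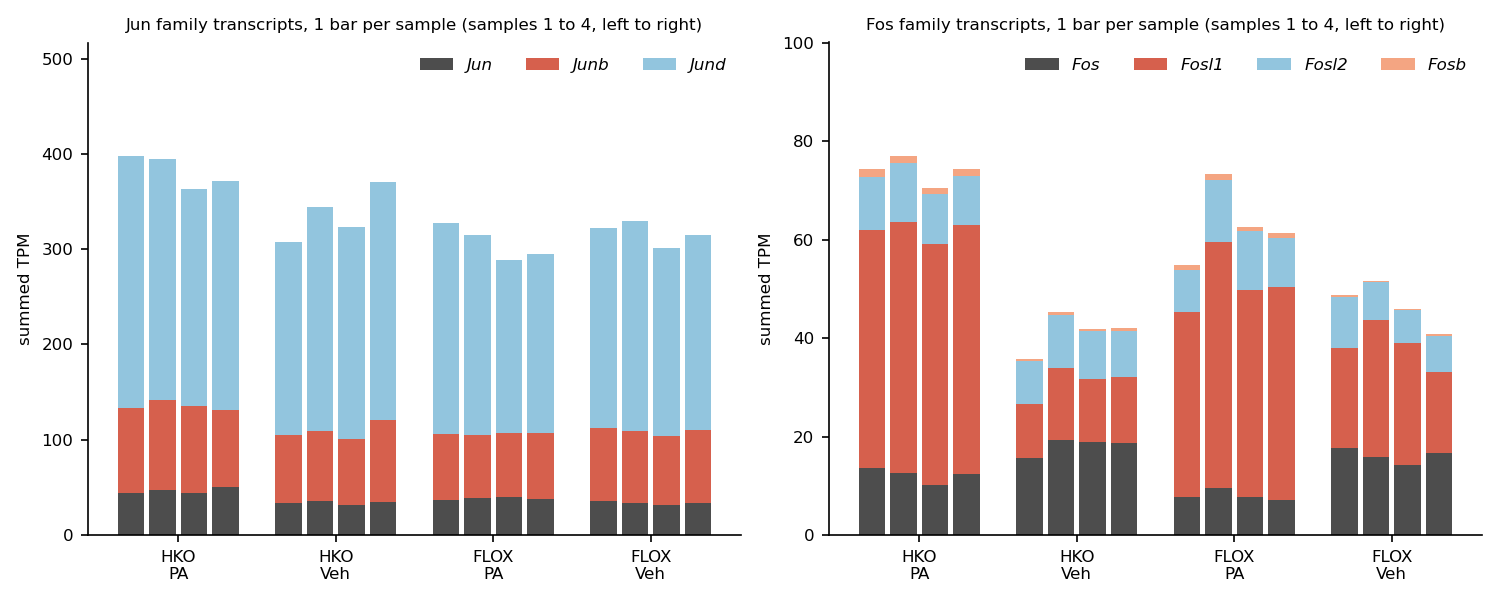
Summed level in TPM (vertical axes, linear, from 0) of the 3 Jun genes and of the 4 Fos genes in each of the 16 samples, stacked by gene, with the samples grouped along the horizontal axes. Fosl1 makes up most of each Fos family bar with PA, at 67.3% on average in HKO cells and 68.6% in FLOX cells, while Jund makes up most of each Jun family bar in all 4 groups.

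Myc (ENSMUSG00000022346), a regulator of ribosome production and growth, rose with PA. Its level in HKO cells was 113.7, 125.9, 100.3 and 122.3 TPM with PA, against 69.2, 72.6, 71.7 and 71.0 TPM with vehicle. In FLOX cells Myc was at 105.4, 111.8, 108.9 and 99.2 TPM with PA, against 83.7, 80.4, 74.4 and 75.3 TPM with vehicle. The groups did not overlap in either genotype, and the 4 HKO vehicle samples lay close together. The log2 difference was 0.69 ± 0.06 in HKO cells (limma adjusted p = 3.72e-07) and 0.43 ± 0.06 in FLOX cells (adjusted p = 6.23e-05), where it was 0.47 without the libraries numbered 1.

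Klf6 (ENSMUSG00000000078), a zinc finger factor induced early after liver injury, rose with PA in both genotypes. Its level in HKO cells was 179.0, 200.2, 181.2 and 187.7 TPM with PA, against 136.8, 153.5, 142.75 and 129.45 TPM with vehicle. In FLOX cells Klf6 was at 144.45, 204.2, 198.1 and 182.7 TPM with PA, against 160.7, 133.7, 134.2 and 132.1 TPM with vehicle. The HKO groups were separate, while the FLOX groups overlapped only through their libraries numbered 1. The log2 difference was 0.41 ± 0.09 in HKO cells (limma adjusted p = 0.00234). In FLOX cells it was 0.37 ± 0.09 (adjusted p = 0.00640), and 0.54 without both libraries numbered 1 (adjusted p = 1.32e-05).

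Egr1 (ENSMUSG00000038418), a zinc finger factor that answers to growth factors and stress, did not pass in any comparison of the fit. It was at 39.3 to 50.7 TPM in HKO samples with PA, against 39.1 to 41.4 TPM in those with vehicle. In FLOX samples it was at 32.1 to 42.0 TPM with PA, against 28.2 to 40.5 TPM with vehicle. The ranges overlapped in both genotypes, with log2 differences of 0.17 in HKO cells (95% interval -0.06 to 0.40) and 0.09 in FLOX cells (95% interval -0.14 to 0.32). The FLOX value was 0.22 without both FLOX libraries numbered 1 (adjusted p = 0.109) and turned to -0.01 with median-ratio scaling.

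**Figure D3:**
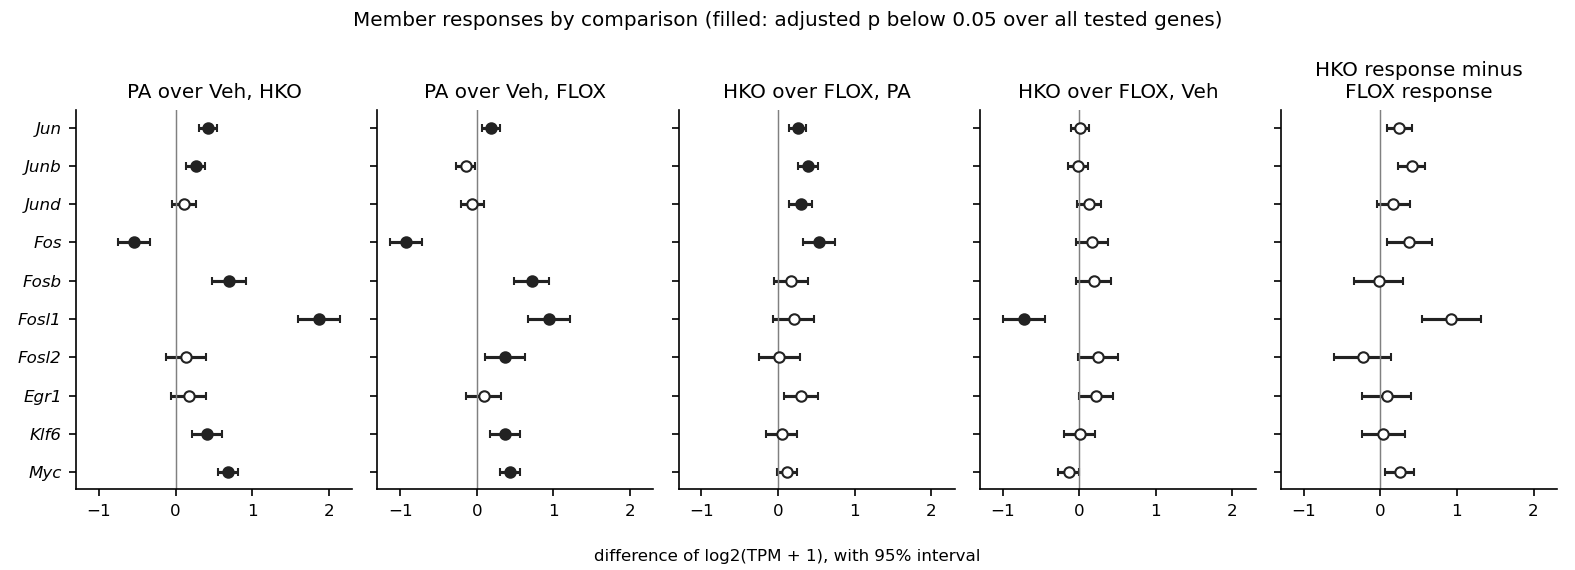
Log2 difference of TPM + 1 (horizontal axes) for each of the 10 genes in the 5 comparisons, with limma 95% intervals. Filled points have an adjusted p below 0.05, and Fosb was tested only because of its level with PA. Fosl1 lies farthest right for PA in HKO cells at 1.87, Fos lies left of 0 for PA in both genotypes, and no point is filled for the interaction.

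Genotype was compared next within each treatment, in comparisons that use the same samples as the PA responses above. With PA, 4 of the 10 genes passed as higher in HKO cells and none as lower, against 9.74% of all genes tested, 4.24% higher and 5.5% lower. These 4 were Fos, Junb, Jund and Jun. Fos averaged 12.2 ± 1.42 TPM in HKO cells, against 8.04 ± 1.04 TPM in FLOX cells, and its mean in HKO cells was 1.51 times that in FLOX cells (log2 difference 0.54 ± 0.10, limma adjusted p = 0.00191). Junb averaged 89.4 ± 5.75 TPM in HKO cells, against 67.8 ± 1.54 TPM in FLOX cells, a log2 difference of 0.39 ± 0.06 (adjusted p = 0.000435). Jund averaged 246 ± 16.3 TPM in HKO cells, against 200.2 ± 18.8 TPM in FLOX cells, a log2 difference of 0.30 ± 0.07 (adjusted p = 0.0136). Jun averaged 46.2 ± 2.88 TPM in HKO cells, against 38.5 ± 1.69 TPM in FLOX cells, a log2 difference of 0.26 ± 0.05 (adjusted p = 0.00623). For each of the 4 genes, every HKO sample with PA was above every FLOX sample with PA, as for 6.11% of all genes tested, while 7.83% had every HKO sample below and 13.9% either pattern. Without the FLOX libraries numbered 1 the 4 calls held, at 0.53 for Fos, 0.40 for Junb, 0.35 for Jund and 0.23 for Jun. They also held in every run that left out 1 library, narrowly for Jund (limma adjusted p up to 0.0494). The Jun family as a whole summed to 382 ± 17.2 TPM in HKO cells with PA, against 306 ± 18.0 TPM in FLOX cells with PA.

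The other 6 genes did not pass between genotypes with PA. Fosl1 had a log2 difference of 0.21 (95% interval -0.06 to 0.48) and Fosb one of 0.17 (95% interval -0.06 to 0.40). Egr1 had 0.30 (95% interval 0.07 to 0.53, limma adjusted p = 0.0946). Myc missed the threshold at 0.12 (adjusted p = 0.304) and passed at 0.18 without HKO PA replicate 3 (adjusted p = 0.0457). Klf6 and Fosl2 lay close to 0, at 0.05 (95% interval -0.15 to 0.25) and 0.02 (95% interval -0.25 to 0.28), and both turned negative without the FLOX libraries numbered 1.

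With vehicle, 1 of the 10 genes passed between genotypes, against 11.7% of all genes tested, 4.11% higher and 7.56% lower. This gene was Fosl1, which was 10.98 to 14.6 TPM in HKO cells, against 16.3 to 27.8 TPM in FLOX cells. The log2 difference was -0.72 ± 0.13 (limma adjusted p = 0.00146), the mean in HKO cells being 58.0% of that in FLOX cells, and no sample overlapped. Samples of the genotypes did not overlap for 2 of the 10 genes, both lower in HKO cells, against 17.8% of all genes tested, 6.06% higher and 11.7% lower. The other of these was Myc, at 69.2 to 72.6 TPM in HKO cells, against 74.4 to 83.7 TPM in FLOX cells, but its log2 difference of -0.14 did not pass (95% interval -0.27 to -0.01, adjusted p = 0.183). Fosl2, at 0.25 (adjusted p = 0.238), passed without both FLOX libraries numbered 1, at 0.36 (adjusted p = 0.0169). The log2 differences of Jun at 0.01 (95% interval -0.10 to 0.13), Junb at -0.02 (95% interval -0.14 to 0.11) and Klf6 at 0.01 (95% interval -0.19 to 0.21) lay near 0.

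Whether PA acted differently in HKO and FLOX cells was tested as an interaction, the log2 response of HKO cells minus that of FLOX cells. None of the 10 genes passed in limma, and 23 of 11858 genes did (0.194%), 0.152% with a higher and 0.0422% with a lower response in HKO cells. At an unadjusted p below 0.05 there were 5 of the 10 genes, against 893 of the 11858 genes tested. That count is a description only, since none of the 5 passed after adjustment. Those 5 were Fosl1, Junb, Jun, Myc and Fos, each with a positive value, which did not stand for the same pattern in each. For Fos it was a smaller fall with PA in HKO cells (-0.55) than in FLOX cells (-0.92). For Fosl1 the HKO cells were lower than FLOX cells with vehicle (-0.72), and the genotypes did not pass with PA (0.21). Fosl1 had 0.93 ± 0.18 (95% interval 0.54 to 1.31, adjusted p = 0.0547, and 0.0141 to 0.135 over the alternatives). It passed without FLOX vehicle replicate 4, at 1.06 (adjusted p = 0.0141), without FLOX PA replicate 2, at 1.00 (adjusted p = 0.0449), and with testing limited to genes at 5 TPM or more, at 0.93 (adjusted p = 0.0390). Junb had 0.41 ± 0.08 (95% interval 0.23 to 0.59, adjusted p = 0.0765, and 0.0124 to 0.474 over the alternatives). It passed without HKO vehicle replicate 4 (0.47, adjusted p = 0.0124), without HKO PA replicate 4 (adjusted p = 0.0476) and with sample weights (0.44, adjusted p = 0.0308). For the other 8 genes the differences in response missed the threshold in the fit and in every alternative run. Fosl2 had the value that the FLOX libraries numbered 1 moved farthest, -0.23 with them and -0.45 without both (adjusted p = 0.147).

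The other genes of the pathway were taken as 8 lists of 119 genes, and 24 of them are named by a rule on size and test. The median log2 difference with PA over a list ranged from 0.15 for textbook AP-1 targets to 0.36 for bZIP partners in HKO cells, and from 0.08 for kinases and SRF factors to 0.28 for bZIP partners in FLOX cells, against the 0.11 and 0.10 over all genes tested given above. Counts of a list are to be read against the shares of all genes tested that passed with PA, 42.5% in HKO cells and 34.4% in FLOX cells. The lists too were chosen with earlier results of these data known, so their counts are no independent support. Among other bZIP partners of AP-1, 7 of 12 were tested. With PA 4 were higher and none lower in HKO cells, 57.1% in all, and 2 were higher and 1 lower in FLOX cells, 42.9% in all. Without HKO PA replicate 2 the HKO count was 2, and without FLOX PA replicate 1 the FLOX count was 5. Atf3, a stress-induced repressor and activator that pairs with Jun, averaged 63.0 ± 6.60 TPM in HKO cells with PA, against 38.5 ± 2.88 TPM with vehicle (log2 difference 0.69, limma adjusted p = 3.22e-06). In FLOX cells it averaged 44.4 ± 1.76 TPM with PA, against 34.3 ± 3.22 TPM with vehicle (0.37, adjusted p = 0.00167). Maff, a small Maf protein, was also higher with PA, by 0.43 in HKO cells and 0.30 in FLOX cells. Jdp2, a repressor of AP-1, was lower with PA in FLOX cells, with a log2 difference of -0.70 (adjusted p = 0.000240) and did not pass in HKO cells at -0.29 (adjusted p = 0.0565).

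Among 19 tested of 23 other immediate early genes, 11 were higher and 4 lower with PA in HKO cells, 78.9% in all, and 8 were higher and 3 lower in FLOX cells, 57.9% in all. Arc, one of the 19, reached 1 TPM in 4 samples with PA and in none with vehicle, and so was tested only because of its level with PA. The counts include Arc as higher in both genotypes. Ppp1r15a, the stress-induced GADD34 that directs a phosphatase to eIF2 alpha, averaged 76.4 ± 9.14 TPM in HKO cells with PA, against 37.5 ± 3.98 TPM with vehicle, and 55.6 ± 3.48 TPM in FLOX cells with PA, against 32.5 ± 2.53 TPM with vehicle. Its log2 differences were 1.01 in HKO cells and 0.76 in FLOX cells (limma adjusted p = 2.38e-07 and 7.11e-06). Btg2, which restrains growth, was higher by 0.68 in HKO cells and 0.59 in FLOX cells. Between genotypes with PA, 5 genes of this list were higher and 2 lower in HKO cells, 7 in all or 36.8%, against 9.74% of all genes tested (4.24% higher and 5.5% lower), and the total was 4 without HKO PA replicate 1 or without FLOX PA replicate 4.

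Of 20 tested of 21 kinases and SRF factors upstream, 9 were higher with PA in HKO cells and none lower, and 6 were higher and 1 lower in FLOX cells. These totals, 45% in HKO cells and 35% in FLOX cells, were near the 42.5% and 34.4% of all genes tested. The HKO count was 5 without HKO PA replicate 3 or without HKO vehicle replicate 1, and with median-ratio scaling 3 were higher and 2 lower. The FLOX total of 7 was 4 without FLOX PA replicate 4 or without FLOX vehicle replicate 2. Mapk7, the kinase ERK5, was higher with PA by 0.71 in HKO cells and 0.52 in FLOX cells. Elk3, a partner of SRF, reached 1 TPM in all 8 samples with PA and in 3 of 8 with vehicle. It was thus tested only because of the groups in which it was higher, and its values in the heatmap support nothing. The counts of this list include Elk3 as higher in both genotypes. Srf itself passed as lower in FLOX cells, at -0.34, and that call was lost in 4 of the 16 runs that leave out 1 library (adjusted p = 0.0134 to 0.0842).

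Of 10 tested of 11 brakes on MAP kinases, 4 were higher with PA in HKO cells and none lower, and 4 were higher and 1 lower in FLOX cells. The HKO total of 40% was near the 42.5% of all genes tested, and the FLOX total was 50%, against 34.4% of all genes tested. Dusp5, a nuclear phosphatase that acts on ERK, averaged 63.7 ± 5.09 TPM in HKO cells with PA, against 25.55 ± 0.97 TPM with vehicle, and 60.6 ± 5.44 TPM in FLOX cells with PA, against 26.4 ± 0.92 TPM with vehicle. Its log2 differences were 1.28 in HKO cells and 1.17 in FLOX cells (limma adjusted p = 4.96e-10 and 1.90e-09). Dusp4, a related phosphatase, averaged 15.7 ± 0.61 TPM in HKO cells with PA, against 11.6 ± 1.11 TPM in FLOX cells with PA. It was higher with PA by 1.18 in HKO cells and 0.77 in FLOX cells.

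Textbook AP-1 targets went both ways. Of 8 tested of 13, 4 were higher and 3 lower with PA in HKO cells, 87.5% in all, and 3 were higher and 2 lower in FLOX cells, 62.5% in all. Ccl2, a monocyte chemokine, averaged 267 ± 52.6 TPM in HKO cells with PA, against 375.5 ± 13.2 TPM with vehicle, and 155.0 ± 19.1 TPM in FLOX cells with PA, against 310.3 ± 9.69 TPM with vehicle. Its log2 differences were -0.52 in HKO cells and -1.004 in FLOX cells (limma adjusted p = 0.00218 and 7.34e-06), and with PA it was higher in HKO than in FLOX cells by 0.76 (adjusted p = 0.000410). Ccnd1, the cyclin of early G1, was low, at 0.90 ± 0.26 TPM in HKO cells with PA, against 2.54 ± 0.31 TPM with vehicle, and at 1.67 ± 0.19 TPM in FLOX cells with PA, against 4.04 ± 0.24 TPM with vehicle. Spp1, the secreted protein osteopontin, was higher in HKO than in FLOX cells under both treatments, by 0.94 with PA and 0.87 with vehicle (adjusted p = 1.68e-07 and 3.63e-07). Its PA response in FLOX cells, 0.19 (adjusted p = 0.0452), was lost in 10 of the 16 runs that leave out 1 library (adjusted p = 0.0242 to 0.152).

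Of 9 tested of 11 partners and relatives of MYC, 4 were higher with PA in HKO cells and none lower, and 2 were higher and 1 lower in FLOX cells, a total of 3 that was 5 without FLOX PA replicate 1. These totals, 44.4% in HKO cells and 33.3% in FLOX cells, were near the 42.5% and 34.4% of all genes tested. Max, the obligate partner of MYC, passed in HKO cells at 0.46 (limma adjusted p = 0.00222) and not in FLOX cells at 0.21 (adjusted p = 0.129). Its level in FLOX vehicle replicate 3 was 31.3 TPM, against 23.5 to 24.8 TPM in the rest of that group. Mnt, which competes with MYC for MAX, was higher with PA by 0.71 in HKO cells and 0.42 in FLOX cells. Among 15 tested of 16 textbook MYC targets, 12 were higher with PA in HKO cells and 7 in FLOX cells, 80% and 46.7% of the list, none lower in either, with median log2 differences of 0.29 in HKO cells and 0.13 in FLOX cells. Srm, which makes spermidine, averaged 107 ± 2.86 TPM in HKO cells with PA, against 69.4 ± 2.05 TPM with vehicle, and 121 ± 3.97 TPM in FLOX cells with PA, against 89.0 ± 1.56 TPM with vehicle. Srm, which rose with PA in both genotypes, was thus lower in HKO than in FLOX cells under both treatments, with log2 differences of -0.17 with PA and -0.35 with vehicle (adjusted p = 0.00435 and 4.19e-06). In the list of MYC targets 1 gene was higher and 5 lower in HKO cells with PA, 40% in all. Of all genes tested, 9.74% passed there, 4.24% higher and 5.5% lower. With vehicle 1 was higher and 8 lower, 60% in all, against 11.7% of all genes tested, 4.11% higher and 7.56% lower. Myc itself differed by -0.14 with vehicle and did not pass.

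Of 12 other KLF factors, all tested, 6 were higher and 1 lower with PA in HKO cells, 58.3% in all, and 4 were higher and 1 lower in FLOX cells, 41.7% in all. Klf15, a regulator of gluconeogenesis and amino acid breakdown in liver, was the lower one, at 1.41 ± 0.22 TPM in HKO cells with PA, against 2.94 ± 0.26 TPM with vehicle, and at 1.20 ± 0.17 TPM in FLOX cells with PA, against 2.96 ± 0.18 TPM with vehicle, of which FLOX vehicle replicate 1 was the highest. Klf16 and Klf11 were higher, by 0.63 and 0.60 in HKO cells and by 0.41 each in FLOX cells. Over all 8 lists no gene passed the interaction in limma. Median-ratio scaling put 47% of all calls with PA in HKO cells on the higher side, against 69.3% without it, and 45.4% in FLOX cells, against 66.7% without it.

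**Figure D4:**
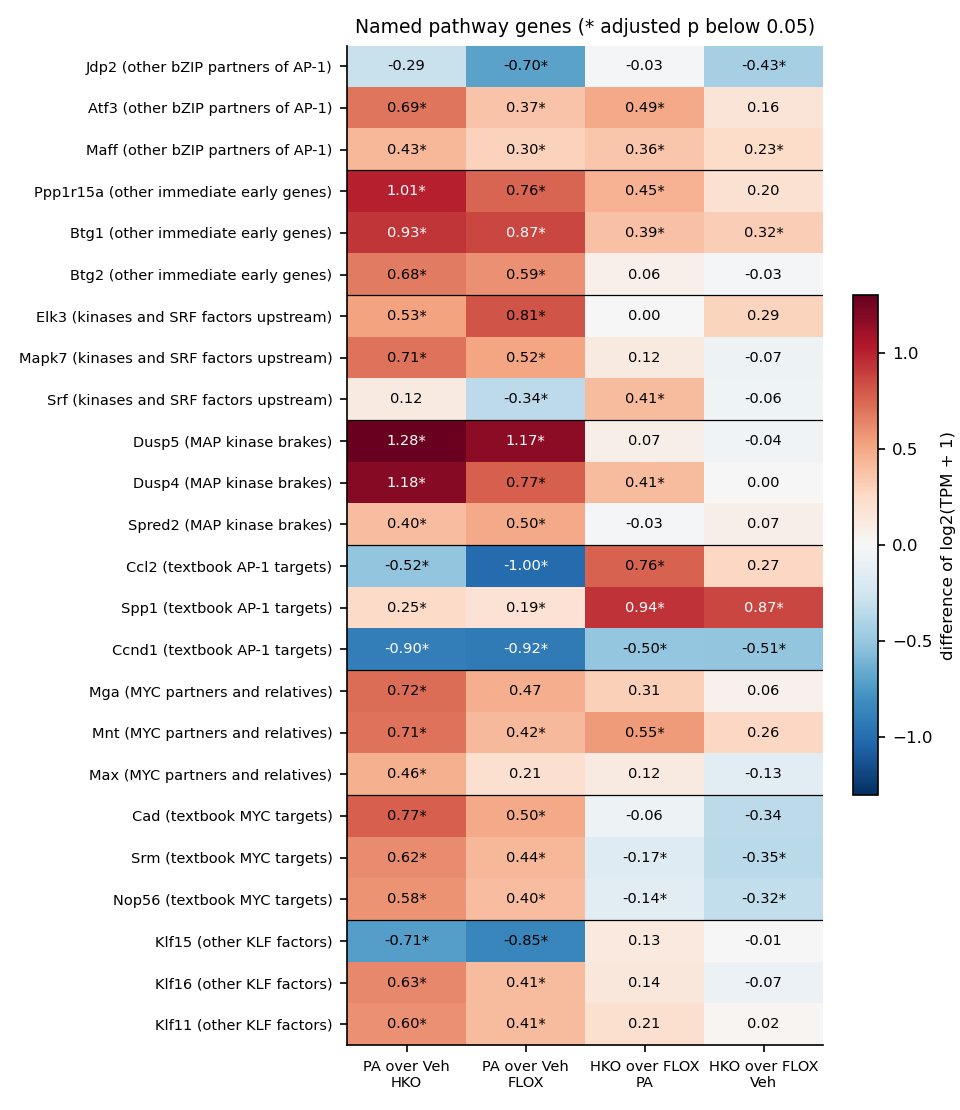
Log2 difference of TPM + 1 (colour) for the 24 named pathway genes (down the page) in 4 comparisons (across), with an asterisk where the limma adjusted p is below 0.05. Dusp5 is highest for PA, at 1.28 in HKO cells and 1.17 in FLOX cells, and Ccl2 is lowest for PA in FLOX cells at -1.004. Elk3 was tested only because of its level with PA, and its asterisks support nothing. The asterisk of Spp1 for PA in FLOX cells was lost in 10 of 16 runs without 1 library, those of Srf in 4, of Spred2 for PA in HKO cells in 4, of Btg1 for HKO against FLOX with vehicle in 6, of Jdp2 there in 3, and of Nop56 for HKO against FLOX with PA in 1.

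The genes whose levels were most alike those of each member over the 16 samples are given as a description, since the 4 groups are shared by all points. Fosl1 correlated at r = 0.980 with Zfp948 and at r = 0.940 with Myc, the most alike of the 10 genes. Myc correlated at r = 0.981 with Golt1b and at r = 0.980 with Phlda1. Klf6 correlated at r = 0.983 with Mapk6, which encodes the atypical kinase ERK3, and Jun at r = 0.977 with Itpkc. Fosb correlated at r = 0.972 with Igsf8 and at r = 0.905 with Myc, and Fosl2 at r = 0.952 with Ddx17. Jund correlated at r = 0.943 with Vegfb and at r = 0.887 with Cebpb, and Junb at r = 0.850 with Mapk3, the kinase ERK1. Egr1 had its most alike gene at r = 0.891, Zswim8. For Fos the most alike gene was Cdh1 at r = 0.955 and the most alike member was Jund at r = 0.390. Only the highest r was sought, so genes that moved opposite to a member were not looked for. Fos fell with PA in both genotypes, while Fosl1, Myc, Klf6 and Jun rose, as did Fosb, which was tested only because of its level with PA. The call of Jun in FLOX cells was lost in 4 of 26 alternatives.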

How the data were processed

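RNA of 16 mouse primary hepatocyte samples was sequenced from stranded total RNA libraries, per the labels' protocols. The values deposited by the authors were TPM for 55416 mouse Ensembl gene IDs. The submitters' processing notes name a human genome build, which mouse IDs contradict, and RSEM 1.3.3. For the aligner, the annotation release and the strand setting, the entry is: not given in the sources used here. Symbols matched 52083 IDs (94.0%), and 0 columns belonged to no sample. TPM keeps no depth, so precision comes from the spread of samples.

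A gene was tested when it had 1 TPM or more in at least 4 samples (11858 genes). The log2(TPM + 1) values of all samples entered 1 model in limma 3.58.1 (R 4.3.3), which took a mean for each group and let the variance follow the level. PA was compared with vehicle within a genotype, HKO with FLOX within a treatment, and the responses of the genotypes with each other, 5 comparisons in all. Two-sided p-values were adjusted over all of these genes (Benjamini-Hochberg), with a threshold of 0.05. The fit was tested on simulated data with 200 genes changed.

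All 10 members are named, and from each of 8 pathway lists up to 3 genes past the threshold with the largest changes, 24 in all, of which some appear in the heatmap alone. For each member, up to 2 genes with the highest Pearson r over 16 samples were taken. The members and lists were chosen with earlier results of these data known. Alternatives changed the pseudocount to 0.1, the filter to none or to 5 TPM, the scaling to median-ratio or quantile, and the model to one without a trend, with the compared groups alone, with a replicate block or with sample weights. Each sample, and both FLOX libraries numbered 1, were also left out.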

Additional observations from a re-analysis of the deposited data

Results flagged for a closer look

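Among 136 sets of 4 samples (the 10 genes and the 24 named pathway genes, each in 4 groups), 3 had 1 sample far from the other 3 by Dixon's criterion, which chance alone passes in about 1 in 20 sets. Klf6 was 160.73 TPM in FLOX vehicle replicate 1, against 132.08 to 134.23 TPM in the other 3 samples of that group, and it was the 1 such case among 40 sets of the 10 genes. Klf15 was 3.23 TPM in FLOX vehicle replicate 1, against 2.85 to 2.87 TPM in the others. Max was 31.26 TPM in FLOX vehicle replicate 3, against 23.52 to 24.82 TPM in the others.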

How the results depend on the processing

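The count of the 10 genes past the threshold with PA stayed within 1.5 times its value in every alternative, at 7 in each run without 1 sample and 6 to 7 otherwise in HKO cells, and at 5 to 8 without 1 sample and 6 to 8 otherwise in FLOX cells. Between genotypes with PA it was 4 to 5. With vehicle it was 1 without any 1 sample, and 2 with sample quality weights and without both FLOX libraries numbered 1. For the interaction it was 0 to 1 without 1 sample, and 1 with a filter of 5 TPM and with sample quality weights. No call was reversed. Signs that turned were all of values that had not passed: with median-ratio scaling Jund with PA in HKO cells (-0.011), Egr1 with PA in FLOX cells (-0.0086) and Junb between genotypes with vehicle (0.015); with quantile normalization Junb between genotypes with vehicle (0.040) and the interaction of Klf6 (-0.0090). With sample quality weights and without both FLOX libraries numbered 1 they were, between genotypes with PA, Fosl2 (-0.036 and -0.085) and Klf6 (-0.027 and -0.060), and in the interaction Egr1 (-0.0049 and -0.054) and Klf6 (-0.077 and -0.13). Leaving out 1 sample gave -0.0017 to 0.17 for Egr1 with PA in FLOX cells, -0.085 to 0.091 for Fosl2 and -0.060 to 0.11 for Klf6 between genotypes with PA, -0.013 to 0.045 for Jun, -0.082 to 0.022 for Junb and -0.036 to 0.074 for Klf6 with vehicle, and -0.081 to 0.029 for Fosb and -0.066 to 0.099 for Klf6 in the interaction. The causes were not tested. Egr1 passed between genotypes with PA under quantile normalization (0.32, adjusted p = 0.0496). Fosb could not be tested with the filter of 5 TPM. With scaling, 55% (median-ratio) and 51.3% (quantile) of calls between genotypes with PA were higher, against 43.5% without it, and 56.6% and 51.9% with vehicle, against 35.2%. With PA 51.9% (HKO cells) and 50.4% (FLOX cells) were higher under quantile normalization. Samples share only a number: same-numbered samples correlated at -0.15 to 0.0861 in their deviations from group means. With the replicate block the counts were 7, 6, 4, 1 and 0, and the call lost was that of Fosl2 with PA in FLOX cells (adjusted p = 0.0899). Depth is unknown, so no limit from counting error can be given.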
